A study of Mus musculus with 15 samples.

Results

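The stellate cell and matrix genes were a set of 10 genes named by symbol, Dcn, Lum, Bgn, Col1a1, Col1a2, Col3a1, Col4a1, Sparc, Timp1 and Lrat, out of the 20325 genes listed for each liver. All 10 were listed in all 15 libraries, and 9 of the 10 passed the filter on low counts and were tested; Timp1 did not pass. The livers came from male C57BL/6J mice aged 19 weeks, with 3 mice in each of 5 groups. ConvR HF/HS mice were raised conventionally, so that they acquired a microbiota from birth, and ate a diet high in fat and sucrose from 3 weeks of age (44.6% of energy from fat, 40.6% from carbohydrate and 14.8% from protein). GF HF/HS mice were kept germ-free on the same diet. ConvD chow mice were germ-free until 15 weeks of age, when 1 gavage of cecal contents from chow-fed ConvR donors colonized them, and their livers were taken 4 weeks later. ConvR chow and GF chow mice were the conventionally raised and the germ-free mice on breeder chow (23.7%, 53.2% and 23.1% of energy from the same nutrients). The labels name no genetic change, fibrosis agent or liver injury in any group. ConvR and GF mice lived in separate isolators and ConvD mice in sealed filter-top cages, all housed by colonization and diet, so that housing and group cannot be told apart.

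Hepatic stellate cells lie between hepatocytes and the sinusoidal endothelium, where they store most of the body's vitamin A as retinyl esters. Upon injury they turn into myofibroblasts, lose their lipid droplets and deposit fibrillar collagen, the main component of a liver scar. In the healthy liver the same matrix genes are read at low levels in stellate cells, portal fibroblasts and, for the basement membrane, endothelial cells, so that the set is not specific to a single cell type. The set holds small leucine-rich proteoglycans that bind collagen fibrils (Dcn, Lum, Bgn), fibrillar collagen chains (Col1a1, Col1a2, Col3a1), a basement membrane collagen (Col4a1), a collagen-binding matricellular protein (Sparc), an inhibitor of matrix proteases (Timp1) and the enzyme that esterifies retinol (Lrat).

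Total expected counts ran from 14737578 to 21794811 per library. All 22 stellate cell identity genes listed in the files had reads, and 21 of the 22 passed the filter, so that stellate cell transcripts were present in these livers. Hepatocyte markers, 8 of 8 tested, summed to 57924 to 133711 CPM (counts scaled to the TMM-normalised library total) per library. The lowest sums were those of ConvR chow 1 and 2, at 63630 and 57924 CPM, against at least 91566 CPM in the other 13 libraries. In ConvR chow 1 and 2 the 22 acute phase genes summed to 99094 and 128075 CPM, against 19410.5 to 28344 CPM in the other 13 libraries. The same 2 libraries had the highest summed neutrophil markers, 40.6 and 54.8 CPM, against at most 8.26 CPM elsewhere (8 listed, 4 tested). In GF chow 1 the 18 immediate early genes summed to 2025 CPM, against 577 and 288 CPM in the other GF chow livers. In whole liver, fewer cells of a type and less RNA per cell cannot be told apart.

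Per unit of gene length, Dcn was the most abundant of the 10 transcripts in every library. Its median was 137 TPM (reads scaled by gene length and library), and it made up 42.3% to 54.5% of the summed TPM of the 10 genes. Bgn followed with a median of 64.7 TPM, Sparc with 33.4 TPM and Col4a1 with 11.1 TPM. Among the fibrillar collagens Col3a1 had a median of 8.69 TPM, Col1a2 of 3.31 TPM and Col1a1 of 1.51 TPM. Lum stood at a median of 6.10 TPM and Lrat at 5.79 TPM. Timp1, which blocks matrix metalloproteinases, had a median of 0.11 TPM and from 0 to 11 counts per library.

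**Figure D1:**
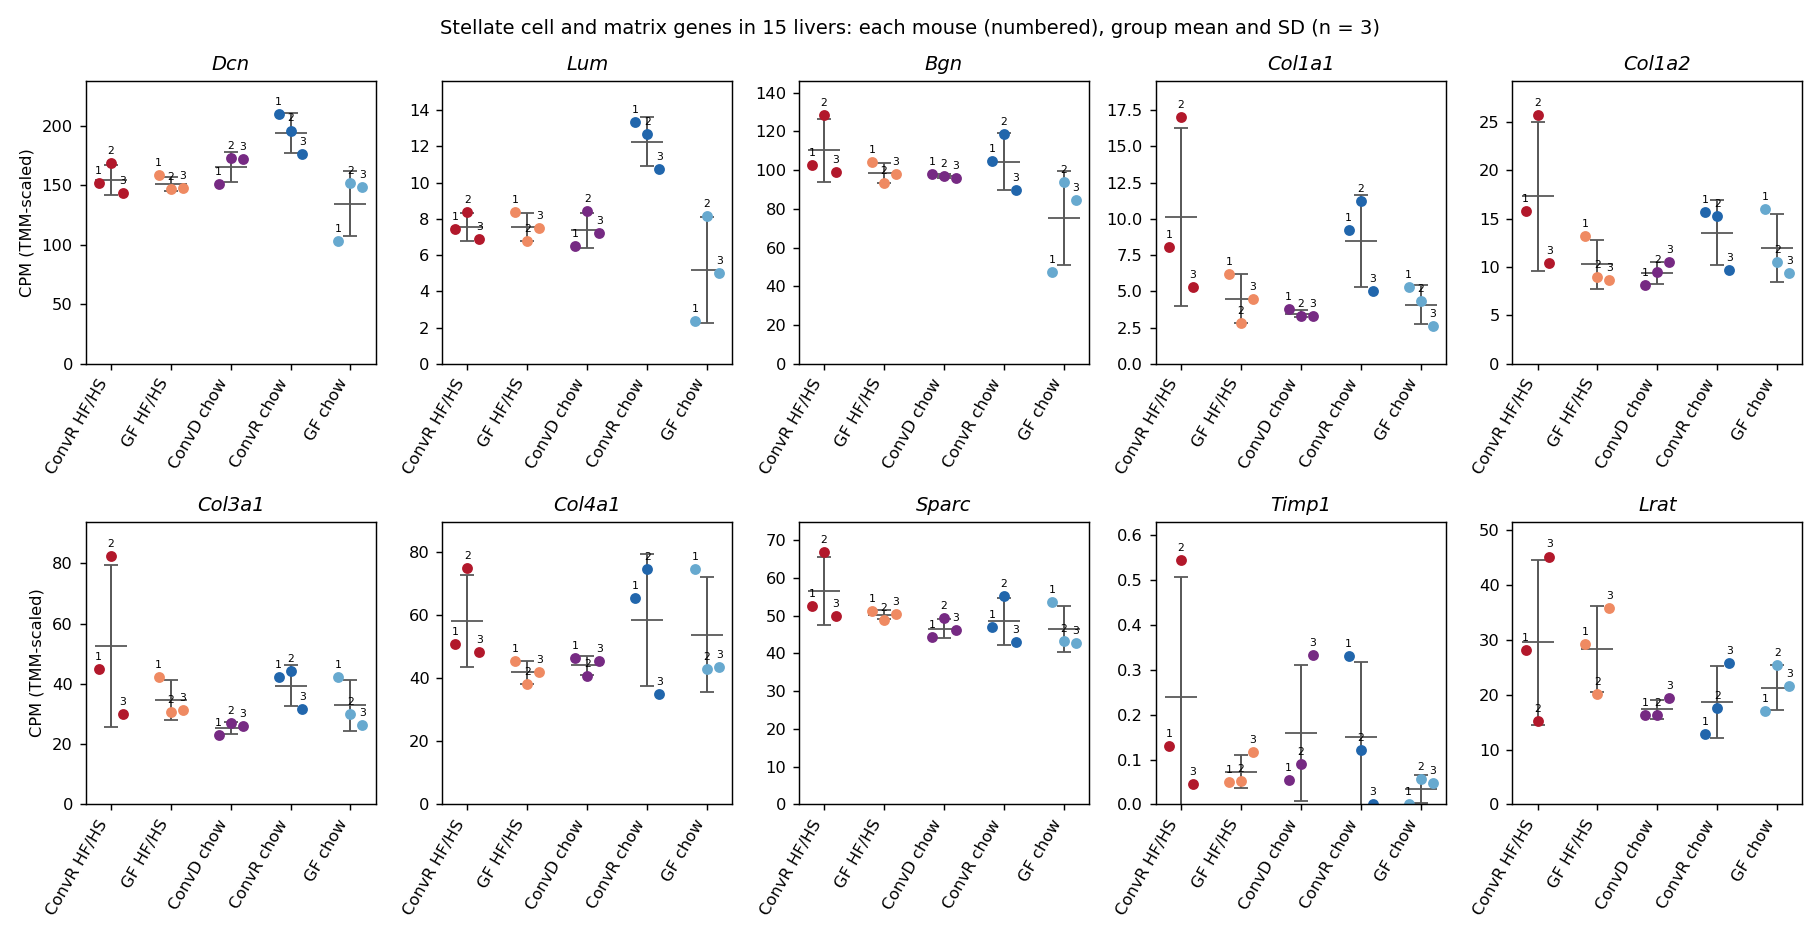
CPM scaled by TMM (y axis, linear, from 0) of each of the 10 genes in the 5 groups (x axis); points are single mice with their replicate number, the long dash is the group mean and the bars are 1 SD (n = 3, bars of Timp1 reaching below 0 are cut at the axis). Dcn and Lum were highest in the 3 ConvR chow livers, and ConvR HF/HS 2 stood above the other livers for Col1a1, Col1a2, Col3a1 and Sparc.

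Lifelong colonization on chow came with more transcript of 2 of the 3 proteoglycans, and no collagen chain of the set passed the test in any comparison. Dcn was 1.44-fold and Lum 2.34-fold as high in ConvR as in GF livers on chow (quasi-likelihood test of edgeR, p adjusted by Benjamini and Hochberg's method over 12377 genes; a gene was called at an adjusted p below 0.05). These were the only calls among the 9 tested genes over the 7 comparisons: 2 called higher and 0 lower in ConvR against GF on chow, where 4.72% of all genes tested were called, 2.55% higher and 2.17% lower. The members' median log2 fold change there was 0.27, against -0.003 over all genes tested. Both calls ended when ConvR chow 1 or ConvR chow 2 was left out. The log2 fold changes were then 0.466 and 0.518 for Dcn and 1.16 and 1.203 for Lum.

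Dcn encodes decorin, a proteoglycan that decorates collagen fibrils and binds TGF beta. On HF/HS it stood at 152, 169 and 144 CPM in ConvR livers and at 158, 147 and 148 CPM in GF livers. On chow it stood at 151, 173 and 172 CPM in ConvD livers, at 209.6, 196 and 176 CPM in ConvR livers and at 103, 152 and 148 CPM in GF livers. In CPM all 3 ConvR chow livers lay above all 12 others, and GF chow 1 lay below every other library. That separation rested on the scale. In TPM the ConvR chow livers stood at 160.57, 138.15 and 138.05, inside the range of the ConvR HF/HS livers (131.01 to 179.63). The log2 fold change of ConvR against GF on chow was 0.53 ± 0.13 (SE), with an adjusted p of 0.0372 by edgeR. By group mean the order was ConvR chow (194 ± 16.7 CPM), ConvD chow (165 ± 12.3 CPM), ConvR HF/HS (155 ± 12.8 CPM), GF HF/HS (151 ± 6.16 CPM) and GF chow (135 ± 27.3 CPM; SD, n = 3 each). The last 4 groups of that order overlapped one another. By mean TPM the order differed, with 153 in ConvR HF/HS, 150 in ConvD chow, 146 in ConvR chow, 129 in GF HF/HS and 111 in GF chow.

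Lum encodes lumican, a keratan sulfate proteoglycan that spaces collagen fibrils. Its levels on HF/HS were 7.43, 8.36 and 6.87 CPM in ConvR livers and 8.35, 6.78 and 7.51 CPM in GF livers. On chow they were 6.50, 8.40 and 7.21 CPM in ConvD livers, 13.4, 12.7 and 10.7 CPM in ConvR livers and 2.34, 8.17 and 5.03 CPM in GF livers. Again the 3 ConvR chow livers lay above all others in CPM and GF chow 1 was the lowest library. In TPM ConvR HF/HS 2 (7.98) lay above ConvR chow 2 (7.97) and ConvR chow 3 (7.52). Lum was 1.23 ± 0.28 (SE) higher on the log2 scale in ConvR than in GF livers on chow, with an adjusted p of 0.0285 by edgeR. ConvR chow averaged 12.3 ± 1.36 CPM, and the next 3 groups, ConvR HF/HS, GF HF/HS and ConvD chow, averaged 7.55 ± 0.754, 7.55 ± 0.786 and 7.37 ± 0.961 CPM and overlapped. GF chow averaged 5.18 ± 2.92 CPM, with 1 of its 3 livers inside the range of those 3 groups.

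The libraries that stand apart bore on both calls. Without ConvR chow 1 and 2, the livers with high acute phase and neutrophil transcripts, the log2 fold change was 0.39 for Dcn (adjusted p = 0.565) and 1.03 for Lum (adjusted p = 0.50), with ConvR chow 3 alone left in its group. Leaving out ConvR chow 1 gave log2 fold changes of 0.466 for Dcn (adjusted p = 0.141) and 1.16 for Lum (adjusted p = 0.111). Leaving out ConvR chow 2 gave 0.518 (adjusted p = 0.131) and 1.203 (adjusted p = 0.108). Both calls thus ended while the fold changes stayed near those of all libraries, 0.53 and 1.23. Calls of other pathway genes in this comparison, where followed, also ended without ConvR chow 2, and all but that of Lpl without ConvR chow 1. Without GF chow 1, the liver with high immediate early transcripts, Dcn was 0.38 higher on the log2 scale (adjusted p = 0.0625), no longer called, and Lum 0.91 higher (adjusted p = 0.0380). Without GF chow 3 the adjusted p of Lum was 0.0544. The direction held under all 16 alternatives run for this comparison, with log2 fold changes of 0.38 to 0.62 for Dcn and 0.91 to 1.70 for Lum.

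**Figure D2:**
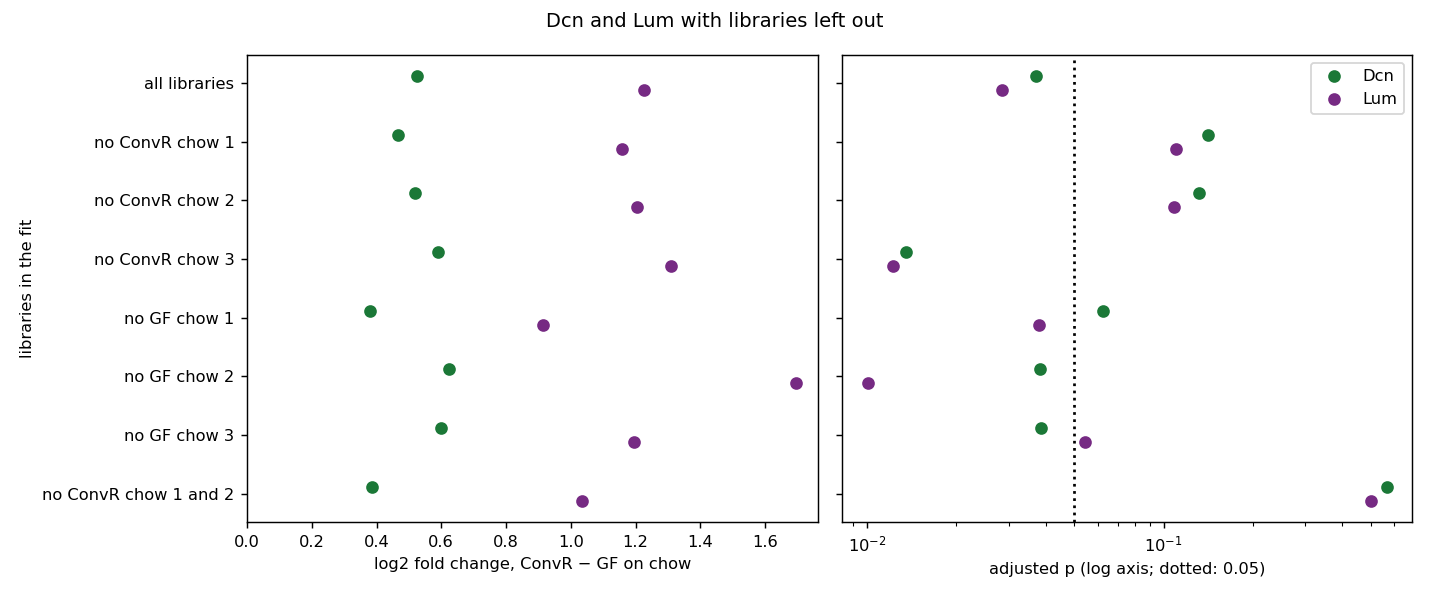
Dcn (green) and Lum (purple) in ConvR against GF livers on chow with all libraries and with libraries left out (y axis); the left panel gives the log2 fold change and the right panel the adjusted p of edgeR's test on a log axis, with a dotted line at 0.05. All log2 fold changes lay above 0, and the adjusted p of both genes lay above 0.05 with either or both of ConvR chow 1 and 2 left out.

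In ConvD livers, 4 weeks after colonization, neither gene was called against GF or ConvR chow. Against GF chow, Dcn was 0.30 ± 0.13 higher on the log2 scale (SE; edgeR adjusted p = 0.180) and Lum 0.50 ± 0.28 higher (adjusted p = 0.293). Without GF chow 1 these differences were 0.14 for Dcn and 0.18 for Lum. Against ConvR chow, Dcn was 0.23 ± 0.13 lower (adjusted p = 0.299; 95% interval of the log2 difference -0.51 to 0.05) and Lum 0.73 ± 0.27 lower (adjusted p = 0.117). The log2 differences were -0.092 for Dcn and -0.54 for Lum without ConvR chow 1 and 2. All 3 ConvD livers had less Lum and less Dcn than any ConvR chow liver in CPM, whereas in TPM the Dcn levels of both groups overlapped. Both comparisons use the 3 ConvD libraries, and neither shows whether the ConvD level is nearer to one group than to the other.

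On HF/HS both proteoglycans overlapped between ConvR and GF livers. The log2 difference of ConvR against GF on HF/HS was 0.03 ± 0.13 (SE) for Dcn, with a 95% interval of -0.24 to 0.31, and the interval for Lum was -0.57 to 0.57. In ConvR mice HF/HS against chow gave log2 differences of -0.33 ± 0.13 for Dcn (edgeR adjusted p = 0.105) and -0.70 ± 0.27 for Lum (adjusted p = 0.0949), neither of them called, although all 3 HF/HS livers lay below all 3 chow livers for both genes (17.2% of all genes tested did so). They were -0.19 for Dcn and -0.51 for Lum without ConvR chow 1 and 2. On log2(TPM + 1) the Dcn difference was 0.07, on a scale where the median of all genes moved by 0.296. In GF mice the log2 differences of HF/HS against chow were 0.17 ± 0.13 for Dcn and 0.53 ± 0.28 for Lum, not called (edgeR adjusted p = 0.445 and 0.254), and 0.015 and 0.21 without GF chow 1. The difference between these differences, the interaction of diet with colonization, was -1.23 ± 0.39 for Lum (unadjusted p = 0.00677, adjusted p = 0.241) and -0.49 ± 0.18 for Dcn (unadjusted p = 0.0171, adjusted p = 0.303).

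Bgn encodes biglycan, a proteoglycan related to decorin that also signals through innate immune receptors when freed from the matrix. Its levels on HF/HS were 103, 129 and 99.0 CPM in ConvR livers and 104, 93.5 and 97.9 CPM in GF livers. On chow they were 98.2, 96.7 and 96.0 CPM in ConvD livers, 105, 119 and 89.5 CPM in ConvR livers and 47.6, 93.7 and 84.6 CPM in GF livers. GF chow 1 was the lowest library for Bgn, as it was for Dcn and Lum, and the other 14 livers lay between 84.6 and 129 CPM. ConvR against GF on chow gave a log2 fold change of 0.47 ± 0.19 (SE; edgeR adjusted p = 0.156), with overlapping groups, and 0.24 without GF chow 1 (adjusted p = 0.301). All 3 ConvD livers lay above all 3 GF chow livers, as did those of 14% of all genes tested, at a log2 difference of 0.36 ± 0.19 (adjusted p = 0.254). Without GF chow 1 that difference was 0.13 (adjusted p = 0.611).

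The fibrillar collagen chains followed a different course from Dcn and Lum, in which 1 ConvR HF/HS liver stood out. That liver, ConvR HF/HS 2, was also the highest library for Bgn, Sparc and Timp1 and, by a small margin, for Col4a1. Col1a1 and Col1a2 encode the chains of type I collagen, the main fibre of scar tissue, and Col3a1 the chain of type III collagen, which is laid down with it. Col1a1 stood on HF/HS at 8.08, 17.0 and 5.28 CPM in ConvR livers and at 6.17, 2.84 and 4.48 CPM in GF livers. On chow it stood at 3.76, 3.30 and 3.33 CPM in ConvD livers, at 9.24, 11.2 and 5.00 CPM in ConvR livers and at 5.30, 4.34 and 2.61 CPM in GF livers. ConvR HF/HS 2 was the highest library and the 3 ConvD livers lay within a narrow low band, below all ConvR livers of both diets.

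Col1a1 had higher means in ConvR than in GF livers on both diets without passing the test. The log2 fold change was 1.07 ± 0.42 on chow (SE; edgeR unadjusted p = 0.0227, adjusted p = 0.145) and 1.16 ± 0.41 on HF/HS (unadjusted p = 0.0125, adjusted p = 0.167). Without ConvR chow 1 and 2 the chow value was 0.31 (adjusted p = 0.892), and without ConvR HF/HS 2 the HF/HS value was 0.57 (adjusted p = 0.627). In ConvD against ConvR livers on chow it was -1.29 ± 0.42, a 0.408-fold level, with an adjusted p of 0.0842. DESeq2's Wald test called that difference (adjusted p = 0.0243), and so did edgeR without ConvR chow 3 (log2 fold change -1.56, adjusted p = 0.0278). It was -0.53 without ConvR chow 1 and 2 (adjusted p = 0.797). Diet gave log2 differences of 0.25 ± 0.39 in ConvR and 0.16 ± 0.43 in GF livers, with intervals of -0.59 to 1.09 and -0.77 to 1.09. The ConvR difference was 1.01 without ConvR chow 1 and 2 and -0.35 without ConvR HF/HS 2, and the GF difference 0.39 without GF chow 1. The counts behind Col1a1 ran from 54 to 344 per library, the lowest of the 3 chains.

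Col1a2 stood on HF/HS at 15.8, 25.7 and 10.5 CPM in ConvR livers and at 13.2, 8.99 and 8.70 CPM in GF livers. On chow its levels were 8.17, 9.44 and 10.5 CPM in ConvD livers, 15.7, 15.3 and 9.71 CPM in ConvR livers and 16.0, 10.6 and 9.38 CPM in GF livers. ConvR HF/HS 2 was the highest library again, and the ranges overlapped in every pair of groups compared. The nearest to a call was ConvR against GF on HF/HS, with a log2 fold change of 0.75 ± 0.30 (SE; edgeR adjusted p = 0.230), and of 0.36 without ConvR HF/HS 2 (adjusted p = 0.717).

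Col3a1 stood on HF/HS at 45.1, 82.3 and 30.1 CPM in ConvR livers and at 42.4, 30.6 and 31.3 CPM in GF livers. On chow its levels were 23.2, 27.1 and 25.9 CPM in ConvD livers, 42.4, 44.2 and 31.6 CPM in ConvR livers and 42.3, 30.0 and 26.3 CPM in GF livers. In CPM the 3 ConvD livers lay below all ConvR livers on chow, as did those of 15.1% of all genes tested. In TPM ConvD chow 2 (8.13) lay above ConvR chow 3 (8.05). The log2 fold change of ConvD against ConvR on chow was -0.63 ± 0.29 (SE, edgeR unadjusted p = 0.0443, adjusted p = 0.200). It was -0.31 without ConvR chow 1 and 2, with ConvR chow 3 alone left in its group. Against GF on HF/HS the ConvR livers differed by 0.59 ± 0.28 (adjusted p = 0.345), and by 0.12 on the log2 scale without ConvR HF/HS 2.

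The proportion of the type I chains also differed between libraries. The TPM of Col1a1 was 0.642, 0.805 and 0.563 of that of Col1a2 in ConvR chow livers, against 0.364, 0.452 and 0.305 in GF chow livers. On HF/HS the ratio was 0.560, 0.727 and 0.555 in ConvR livers, against 0.512, 0.346 and 0.567 in GF livers, where the groups overlapped. In ConvD livers it was 0.504, 0.381 and 0.347. These ratios were computed after the single levels had been seen and were not tested.

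Col1a2 and Col3a1, the pair of the set with the most similar profiles over the livers, have RefSeq promoter windows that are shown here because of that likeness. Given are the 250 bases before the RefSeq transcription start in build GRCm38.p6, 5′ to 3′, in lower case, and capitals mark 3 motifs searched on both strands. The TATA box was searched as TATAAA, the element bound by nuclear factor Y as CCAAT, and the GC box as GGGCGG, which do not overlap one another here. Col1a2 lies at chr6:4505368-4505617 on the plus strand and Col3a1 at chr1:45311288-45311537 on the plus strand.
Col1a2: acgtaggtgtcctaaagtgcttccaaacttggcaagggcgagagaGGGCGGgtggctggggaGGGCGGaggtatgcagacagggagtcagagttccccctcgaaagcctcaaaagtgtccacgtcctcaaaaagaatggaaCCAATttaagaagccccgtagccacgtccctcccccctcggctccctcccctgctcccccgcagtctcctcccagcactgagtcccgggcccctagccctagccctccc
Col3a1: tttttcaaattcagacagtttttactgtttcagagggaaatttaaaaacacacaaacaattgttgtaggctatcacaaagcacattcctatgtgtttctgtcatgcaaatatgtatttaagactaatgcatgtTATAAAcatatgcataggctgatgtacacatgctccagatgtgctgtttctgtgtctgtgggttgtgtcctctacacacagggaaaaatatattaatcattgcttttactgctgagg
The Col1a2 window holds 2 GC boxes, at 205 and 188 bases before the start, and a CCAAT box at 109 bases. The Col3a1 window holds a TATA box at 117 bases before the annotated start and neither of the other motifs. Of 32851 such RefSeq windows, 32.7% held the GC box, 33.8% the CCAAT element and 12.4% the TATA box on either strand. A match describes these letters only; 7 of the 10 genes had a window in the table.

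Col4a1 encodes a chain of type IV collagen, the network of basement membranes. It stood on HF/HS at 50.7, 74.7 and 48.4 CPM in ConvR livers and at 45.4, 38.0 and 42.0 CPM in GF livers. On the chow diet it had 46.2, 40.6 and 45.5 CPM in ConvD livers, 65.5, 74.7 and 35.0 CPM in ConvR livers and 74.7, 42.9 and 43.5 CPM in GF livers. The 3 ConvR livers on HF/HS lay above the 3 GF livers, and on chow both groups were wide and overlapped. The separation on HF/HS was 0.47 ± 0.26 on the log2 scale (SE; edgeR adjusted p = 0.423) and 0.25 without ConvR HF/HS 2 (adjusted p = 0.826), and 12.7% of all genes tested had ConvR livers wholly above GF livers on that diet.

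Sparc, a matricellular glycoprotein that binds collagen and guides its assembly, varied least of the set. Its highest library was 1.56 times its lowest in CPM, against 6.52 times for Col1a1. On HF/HS it stood at 52.6, 66.8 and 50.0 CPM in ConvR livers and at 51.4, 48.9 and 50.5 CPM in GF livers. On the chow diet it had 44.3, 49.3 and 46.1 CPM in ConvD livers, 47.1, 55.3 and 43.1 CPM in ConvR livers and 53.5, 43.2 and 42.8 CPM in GF livers. HF/HS against chow in ConvR gave a log2 difference of 0.22 ± 0.12 (SE; edgeR adjusted p = 0.248), and of 0.39 without ConvR chow 1 and 2 and 0.083 without ConvR HF/HS 2. With DESeq2 size factors, and with each library's trend of level over gene length removed, Sparc was not called either. It passed the test at 0.60 on log2(TPM + 1) by limma (adjusted p = 0.00422) and at 0.43 with no normalization factors by edgeR (adjusted p = 0.0230), where the median of all genes moved by 0.296 and 0.186.

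Lrat encodes lecithin retinol acyltransferase, which forms the retinyl esters held in stellate cell droplets, and it marks quiescent stellate cells in the liver. On HF/HS it stood at 28.2, 15.2 and 45.1 CPM in ConvR livers and at 29.2, 20.0 and 35.7 CPM in GF livers. On chow Lrat stood at 16.3, 16.4 and 19.3 CPM in ConvD livers, at 12.8, 17.5 and 25.7 CPM in ConvR livers and at 17.0, 25.3 and 21.5 CPM in GF livers. ConvR HF/HS 2, the highest library for Col1a1, Col1a2 and Col3a1, had the least Lrat on HF/HS, and the highest level was that of ConvR HF/HS 3. HF/HS against chow gave log2 differences of 0.67 ± 0.33 in ConvR (SE; edgeR adjusted p = 0.197) and 0.41 ± 0.33 in GF livers (adjusted p = 0.466). The ConvR difference was 0.20 without ConvR chow 1 and 2 and 0.98 without ConvR HF/HS 2 (adjusted p = 0.847 and 0.0520). The 4 comparisons of colonization gave log2 differences of -0.30 to 0.06, with the 95% interval of ConvR against GF running from -0.91 to 0.52 on chow and from -0.63 to 0.76 on HF/HS. The chow difference of ConvR against GF was 0.27, above 0, without ConvR chow 1 and 2.

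Timp1 was close to the limit of detection. Its counts on HF/HS were 3, 11 and 1 in ConvR livers and 1, 1 and 2 in GF livers. On chow they were 1, 2 and 6 in ConvD livers, 6, 2 and 0 in ConvR livers and 0, 1 and 1 in GF livers. The highest count was again in ConvR HF/HS 2. Fitted with no filter on low counts, its adjusted p ranged from 0.469 to 1 over the 7 comparisons, and a difference was not detectable at this depth.

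**Figure D3:**
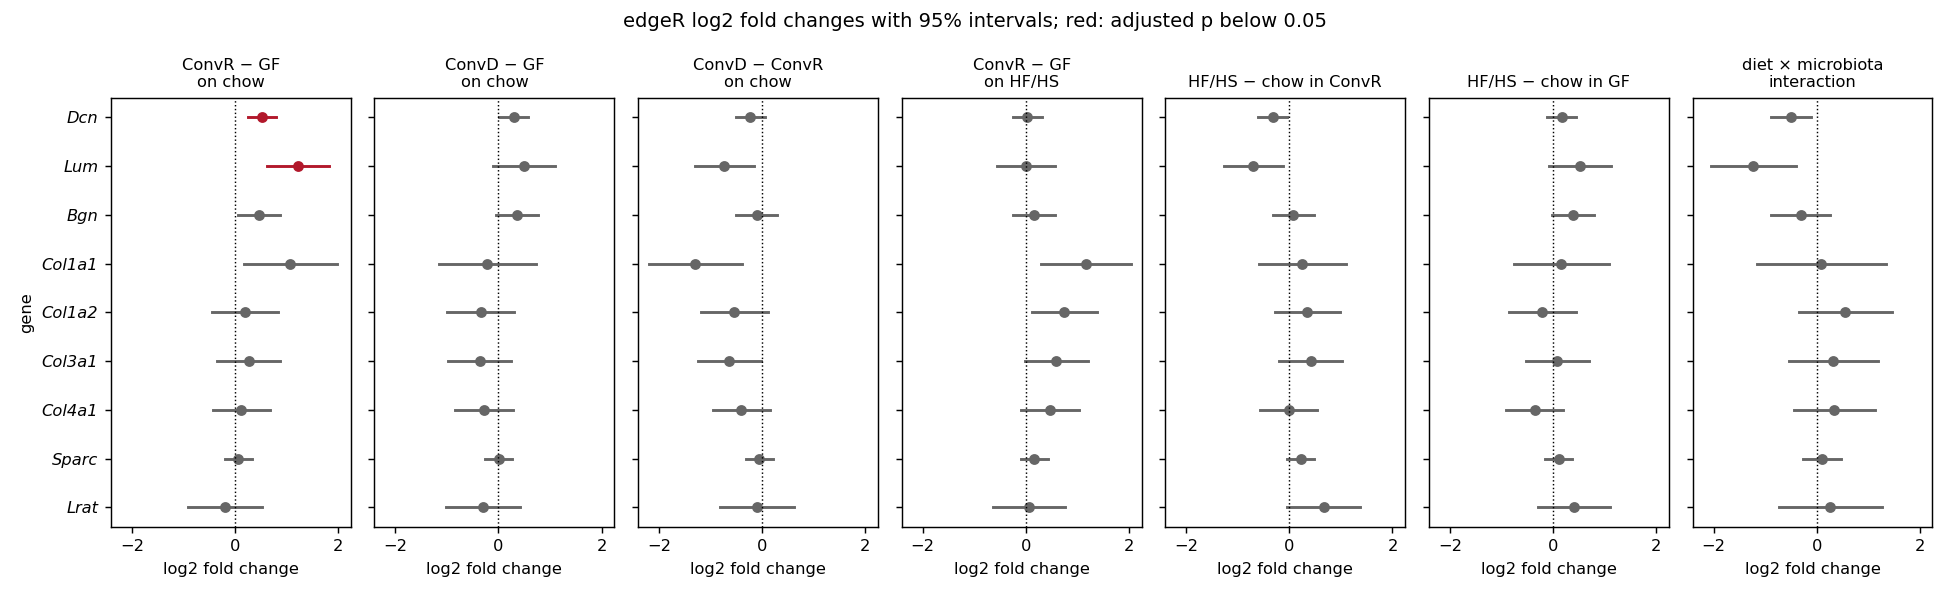
Log2 fold changes (x axis) of the 9 tested genes (y axis) in the 6 comparisons and the interaction of diet with colonization; points are edgeR estimates, lines their 95% intervals, and red marks an adjusted p below 0.05. Only Dcn and Lum in ConvR against GF on chow are red, and in ConvD against ConvR all 9 points lie below 0, of which Dcn, Bgn, Sparc and Lrat lay above 0 on log2(TPM + 1).

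For ConvR against GF on chow, 4 of the 9 genes had an unadjusted p below 0.05, all higher, where 11.2% of all genes tested were so, and 2 had groups that did not overlap, where 9.81% did. For ConvD against GF on chow no gene was called, against 5.59% of all genes, and Dcn had the 1 unadjusted p below 0.05 (0.0384, higher; 11% of all genes). In ConvD against ConvR on chow all 9 log2 fold changes were below 0, with a median of -0.41 and a range of -1.29 to -0.06, and none was called, against 5.5% of all genes. An unadjusted p below 0.05 was found for 3 of them, Lum, Col1a1 and Col3a1, against 12.4% of all genes for that direction. There 4 genes had ConvD livers wholly below ConvR livers in CPM, Dcn, Lum, Col1a1 and Col3a1, where 15.1% of all genes did. In TPM the groups overlapped for Dcn and Col3a1. The sign count rested on the scale: on log2(TPM + 1) 5 of 9 were below 0, with Dcn, Bgn, Sparc and Lrat turned, and without ConvR chow 1 and 2 it was 6 of 9.

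On HF/HS, ConvR against GF gave no call among the 9 genes, against 1.62% of all genes, and 2 unadjusted p below 0.05, Col1a1 and Col1a2, both higher (7.5% of all genes). For HF/HS against chow the 9 genes had no call in ConvR mice, where 14.6% of all genes were called, and none in GF mice, where 9.55% were. In GF mice no member had an unadjusted p below 0.05, where 26.2% of all genes did, and in ConvR mice Dcn and Lum did, both lower, where 15.6% of all genes did in that direction. In the interaction Dcn and Lum were the 2 genes with an unadjusted p below 0.05, both lower (6.49% of all genes), and none was called. Over all 12377 genes edgeR called 0 (0%) in the interaction, with 1573 unadjusted p below 0.05 and 150 calls by DESeq2's Wald test.

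**Figure D4:**
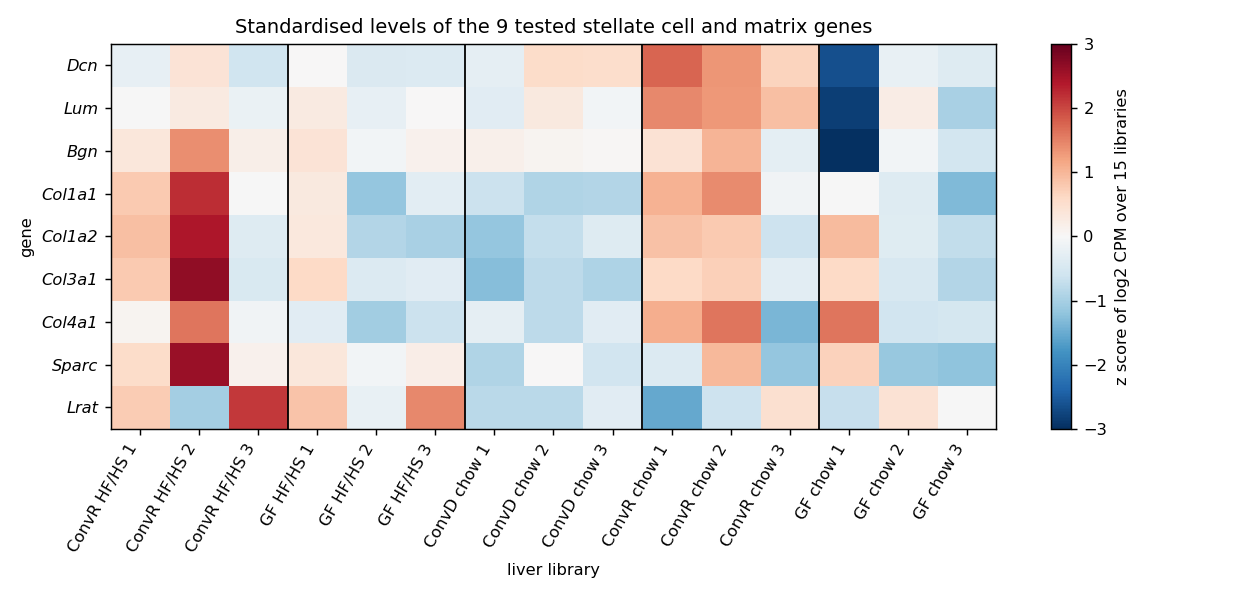
Standardised log2 CPM (z score over the 15 libraries, colour scale from -3 to 3) of the 9 tested genes (rows) in each library (columns, groups parted by lines). Dcn and Lum share a high in the ConvR chow livers and, with Bgn, a low in GF chow 1, while Col1a1, Col1a2, Col3a1 and Sparc share a high in ConvR HF/HS 2.

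Over the 15 livers the closest pairs of the set were Col1a2 with Col3a1 and Dcn with Lum. Likeness was measured as the root mean square difference of z scores of log2 CPM against 9960 candidate genes (mean CPM of 2 or more), as a description with no test. Lum was the gene nearest to Dcn (0.335) and Dcn the nearest to Lum, followed for Dcn by Mlh3 (0.434) and Ifitm1 (0.468) and for Lum by Rnf185 (0.363) and Tmem55a (0.416). Col3a1 was the gene nearest to Col1a2 (0.307), and its own next neighbours were Gsn (0.376), an actin-severing protein, and Col1a1 (0.428). Ccdc80 (0.375), a matrix protein, was the nearest to Col1a1, and Synj2 (0.435) came after Col3a1. For Col4a1 the nearest genes were Myo9b (0.285) and Col4a2 (0.360), the chain that assembles with it, and then Haus8 (0.453), which was also second for Col1a2 (0.450).

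Bgn lay nearest to Arhgef6 (0.282), Pigp (0.338) and Kdelr1 (0.367), and Sparc to Rhoj (0.471), Mgat4b (0.493) and Ctsd (0.508). Lrat had the least close neighbours, Rarb (0.502), Pde2a (0.520) and Cyp26b1 (0.546). Rarb is a retinoic acid receptor and Cyp26b1 an enzyme that clears retinoic acid. These profiles share libraries, their depth and their scaling. The 8 cholangiocyte markers (6 tested) summed to 66.2, 134.5 and 39.0 CPM in ConvR HF/HS livers and to 51.2, 68.5 and 46.8 CPM in GF HF/HS livers. On chow they summed to 147.5, 108.4 and 45.8 CPM in ConvR livers and to 82.99, 49.99 and 49.0 CPM in GF livers. Their highest libraries are thus among those with the most Col1a1, and their part in the collagen values was not tested.

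The wider pathway was read in 11 lists, of which 7 overlap the set. As a background for their counts, 2.25% of all genes were called higher and 3.34% lower in ConvD against GF, and 2.2% higher and 3.3% lower in ConvD against ConvR on chow. In ConvR against GF on HF/HS 0.881% were called higher and 0.735% lower. HF/HS against chow gave 6.75% higher and 7.8% lower in ConvR, and 4.1% higher and 5.45% lower in GF mice.

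Among the proteoglycans other than Dcn, Lum and Bgn, 6 of 9 could be tested, and Kera and Epyc had no reads in any library. Omd, osteomodulin, was lower in ConvR than in GF livers on chow, at 3.29 ± 0.172 against 5.54 ± 0.412 CPM (SD, n = 3 each; log2 fold change -0.75, edgeR adjusted p = 0.0156), so that it moved against Dcn and Lum. HF/HS livers held more Omd than chow livers in GF mice, with 9.41 ± 0.714 against 5.54 ± 0.412 CPM (adjusted p = 0.00505), and in ConvR mice, with 5.81 ± 0.763 against 3.29 ± 0.172 CPM (adjusted p = 0.0018). Both diet calls held with any single library removed, and that in ConvR mice ended without both ConvR chow 1 and 2. The call on chow ended without ConvR chow 1 or ConvR chow 2. Prelp, which anchors basement membranes to connective tissue, was higher in ConvD than in GF livers, at 64.4 ± 4.06 against 38.4 ± 6.34 CPM (adjusted p = 0.00783), also with each library left out in turn.

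Of the 16 collagen genes listed, 1 rose in ConvR against GF on chow, where the list's median log2 fold change was 0.13. This was Col15a1, a basement membrane zone collagen, at 11.7 ± 4.598 against 3.33 ± 1.43 CPM (SD, n = 3 each; edgeR adjusted p = 0.0195), a call that ended without ConvR chow 1 or 2. Under HF/HS 1 of 16 rose in ConvR mice, Col14a1, a collagen that associates with fibril surfaces, at 84.5 ± 13.4 against 55.6 ± 7.60 CPM (adjusted p = 0.0199), which ended without ConvR chow 2, ConvR chow 3 or ConvR HF/HS 2. In the other 5 comparisons 0 of 16 were called. Enzymes and chaperones that process collagen, 20 tested, had between 0 and 2 calls in any comparison. Ppib, a prolyl isomerase of the endoplasmic reticulum, fell under HF/HS in ConvR mice, at 169.9 ± 12.2 against 252 ± 24.9 CPM (SD, n = 3 each; edgeR adjusted p = 0.00182), a call that ended on TPM and without both ConvR chow 1 and 2.

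Among basement membrane genes, 5 of 14 rose on HF/HS in ConvR mice and 0 fell, and the list's median log2 fold change was 0.43. Lamc1, a laminin chain, reached 21.7 ± 2.01 against 14.4 ± 1.78 CPM (SD, n = 3 each; edgeR adjusted p = 0.00382), and Nid1, which links laminin to type IV collagen, reached 26.5 ± 7.30 against 15.8 ± 2.73 CPM (adjusted p = 0.00992). Lama4 and Lamb3, further laminin chains, rose by 0.84 and 1.49 on the log2 scale (adjusted p = 0.00865 and 0.00459). Col4a1 itself had a log2 difference of -0.01 ± 0.26 in that comparison. Without ConvR chow 1 and 2 the count was 2 of 14, Lamc1 and Nid1. In GF mice 0 of 14 passed, with a median of 0.18. Over all genes tested, a library's deviation from each gene's mean level followed gene length to an extent that differed between groups. The rank correlation was 0.018, -0.083 and -0.313 in ConvR chow livers and 0.089, 0.154 and 0.277 in ConvR HF/HS livers. The calls of Lamc1, Nid1, Lama4 and Lamb3 held with that trend removed. In the ConvR comparison 4 of the 12 sinusoidal endothelial markers were also called higher and 0 lower, with a median log2 fold change of 0.36. Their summed level was 516, 556 and 615 CPM in ConvR HF/HS livers against 427, 502 and 453 CPM in ConvR chow livers, and its part in the list's count was not tested.

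Matrix glycoproteins and matricellular genes, 25 tested, had 6 higher and 1 lower under HF/HS in ConvR mice. Spon2, a spondin family matrix protein, reached 23.3 ± 4.81 against 13.3 ± 0.665 CPM (SD, n = 3 each; edgeR adjusted p = 0.00698; ended without both ConvR chow 1 and 2). Postn, periostin, stood at 14.02 ± 4.01 against 8.11 ± 1.86 CPM in ConvR mice (adjusted p = 0.0128) and at 15.6 ± 1.16 against 9.22 ± 0.756 CPM in GF mice (adjusted p = 0.024); the ConvR call ended without ConvR chow 1, ConvR chow 2 or ConvR HF/HS 2, and the GF call without GF chow 1 or any GF HF/HS liver. Vtn, vitronectin, which hepatocytes secrete, fell to 1499 ± 228 CPM in ConvR HF/HS against 2634 ± 805 CPM in ConvR chow livers (edgeR adjusted p = 0.0114). The Vtn call ended on TPM, with the compared groups fitted alone, and without ConvR chow 2 or ConvR HF/HS 2. Without ConvR chow 1 and 2 the list held 2 higher and 0 lower.

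Proteases and their inhibitors, 19 tested, had 3 higher under HF/HS in ConvR mice and 2 higher and 1 lower in GF mice. Timp3, a matrix-bound relative of Timp1, reached 27.9 ± 1.49 CPM in GF HF/HS against 18.1 ± 1.75 CPM in GF chow livers (SD, n = 3 each; edgeR adjusted p = 0.0038), with each library left out in turn as well. Reck, a membrane-anchored protease inhibitor, reached 5.29 ± 1.37 against 2.39 ± 0.621 CPM in ConvR mice on HF/HS against chow (adjusted p = 0.00875; ended without both ConvR chow 1 and 2).

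Stellate cell identity genes, 21 tested, had 1 higher and 3 lower under HF/HS in ConvR mice and 1 higher and 3 lower in ConvD against ConvR livers. Cygb, a stellate cell globin, stood at 5.54 ± 0.422 CPM in ConvR HF/HS against 8.93 ± 1.02 CPM in ConvR chow livers (SD, n = 3 each; log2 fold change -0.69, edgeR adjusted p = 0.00571), a call that ended on TPM and without both ConvR chow 1 and 2. Steap4, which is also an acute phase gene, was highest in ConvR chow, at 676 ± 498 CPM, and its calls ended without ConvR chow 1 and 2.

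Retinoid storage and handling genes, 23 tested, had 3 lower and 0 higher in ConvR against GF on chow. These were Lpl, Rbp4, the plasma carrier of retinol made by hepatocytes, and Rdh7, with log2 fold changes of -0.84, -0.63 and -0.38 (edgeR adjusted p = 0.0147, 0.0279 and 0.0476). Without ConvR chow 1 and 2 the count was 0, the Lpl call ended without ConvR chow 2, and those of Rbp4 and Rdh7 without ConvR chow 1, ConvR chow 2 or GF chow 1, and that of Rdh7 also without GF chow 2 or 3. Under HF/HS 1 rose and 1 fell in ConvR mice, and likewise in GF mice. Pnpla3, a lipase that also acts on retinyl esters, reached 5.86 ± 4.31 CPM on HF/HS against 0.512 ± 0.204 CPM in ConvR mice and 11.3 ± 6.41 against 0.255 ± 0.169 CPM in GF mice (SD, n = 3 each; adjusted p = 0.00283 and 0.00109). The Pnpla3 call in ConvR mice ended without both ConvR chow 1 and 2. Stra6 and Crabp1 had no reads in any library.

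Activated myofibroblast genes, 17 tested, had 2 higher and 0 lower under HF/HS in ConvR mice, and Acta2, the smooth muscle actin that marks activation, was not among the calls. Tpm2, a tropomyosin, reached 10.8 ± 2.45 against 2.95 ± 1.78 CPM (SD, n = 3 each; edgeR adjusted p = 0.0011), and Lgals1, galectin 1, reached 41.0 ± 17.0 against 13.7 ± 5.57 CPM (adjusted p = 0.00372; ended without both ConvR chow 1 and 2). Lgals1 was also higher in ConvR than in GF livers on HF/HS, where GF livers held 10.2 ± 1.67 CPM (adjusted p = 0.00629; 0.0595 without GF HF/HS 2). It was the only call among the 11 lists in that comparison besides Omd, which was lower at 5.81 ± 0.763 against 9.41 ± 0.714 CPM (adjusted p = 0.0166) and whose call ended without ConvR HF/HS 2, GF HF/HS 2 or GF HF/HS 3. Portal fibroblast and mesothelial genes, 12 tested, had between 0 and 2 calls in any comparison, with Gsn 0.65 lower on the log2 scale in ConvD than in ConvR livers (adjusted p = 0.0483, ended by most alternatives).

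TGF beta and PDGF signalling genes, 26 tested, had 2 higher and 1 lower under HF/HS in ConvR mice. Tgfbr2, a TGF beta receptor, reached 33.1 ± 4.13 against 22.3 ± 1.66 CPM (SD, n = 3 each; edgeR adjusted p = 0.00191), under all 16 alternatives. Eng, its endothelial co-receptor, stood at 73.2 ± 3.06 against 56.9 ± 5.65 CPM (adjusted p = 0.0128; 0.0597 without ConvR chow 1), in the comparison in which the sinusoidal endothelial markers had a median of 0.36. The lower gene was Gdf2, a circulating ligand made by stellate cells, at 17.2 ± 0.560 against 21.0 ± 1.12 CPM (adjusted p = 0.0227), which 4 of 6 left-out libraries ended. Over the 11 lists no gene was called in the interaction of diet with colonization.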

How the data were processed

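Liver RNA of 15 mice was sequenced with a stranded poly(A) kit, per the labels' protocols, and the submitters' processing notes name Bowtie2, RSEM 1.2.23 and the build mm9. The authors deposited 1 table for each liver with estimated counts (RSEM expected counts), TPM, FPKM and gene lengths; the expected counts and TPM were used here. FPKM values, deposited by the authors beside them, were not used. Files were joined by gene symbol, since 2 list the genes in another order. Expected counts were rounded, filtered with filterByExpr (minimum count 10), scaled by TMM and fitted with edgeR 4.0.16 in R 4.3.3, with 5 group means over all 15 libraries (10 residual degrees of freedom). The quasi-likelihood test gave p-values, adjusted over the 12377 genes passing the filter. Standard errors are the log2 fold change divided by the root of F. CPM levels are unrounded expected counts divided by the TMM-scaled total. Alternatives used DESeq2 1.42.0 and limma 3.58.1 on log2(TPM + 1); the test was checked on simulated counts. The spread behind each p-value was estimated over all 15 libraries, with information shared between genes, and not from the compared mice alone. The labels name separate mice but not which shared a cage. Mice were therefore fitted as independent, and shared cages were not accounted for. Comparisons share groups: GF chow and ConvR chow livers each enter 3 of the 6. All 10 members were named in every comparison, up to 4 genes of a list by smallest p, and the 3 nearest profiles of each tested member. Members and lists were chosen with earlier results of these data known. The main fit treated the mice as unpaired, with replicate number as a block in 1 alternative. Some genes of the lists that enter the counts are not reported here by name.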

Additional observations from a re-analysis of the deposited data

How the results depend on the processing

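Over 25 settings, 1015 of 1035 member values kept their side of the threshold, 12 lost it and 8 gained it. Only 2 of the 63 results were called, so most values that kept their side were uncalled throughout. All 12 losses fell on these 2 results, in 7 of 16 alternatives for Dcn and 5 of 16 for Lum. Among called values 0 changed sign, and among uncalled values 73 did. In ConvR against GF on chow the 2 calls, Dcn and Lum, became 0 with the compared groups fitted alone (adjusted p = 0.280 and 0.259), 0 without both ConvR chow 1 and 2, 1 (Lum) by limma-trend on log2(TPM + 1) and 1 (Lum) with no normalization factors, and ranged from 0 to 2 with single libraries left out. In ConvD against ConvR the 0 calls became 1 (Col1a1) by DESeq2's Wald test and ranged from 0 to 1 over left-out libraries. In ConvD against GF they ranged from 0 to 1, with Lum 0.97 higher (adjusted p = 0.0309) without GF chow 2, and in HF/HS against chow in GF mice from 0 to 1, with Lum 1.00 higher (adjusted p = 0.0223) without the same library. HF/HS against chow in ConvR mice had 0 calls, 1 with the groups alone (Lum, -0.70, adjusted p = 0.0277), 2 by limma-trend on log2(TPM + 1) (Sparc, Lrat) and 1 with no normalization factors (Sparc). In these cases the cause was not tested. With the replicate block Dcn and Lum were called as before (edgeR adjusted p = 0.0487 and 0.0339). Deviations from the group means correlated at -0.230 to 0.246 between same-numbered mice of different groups, with 2 of 30 pairs over 0.1. Between mice of other numbers they correlated at -0.243 to 0.225, with 7 of 60 pairs over 0.1. These values show no sign of pairing by number, but with 3 libraries per group they cannot exclude it.

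Counts over all genes ranged more widely: 0 to 1655 (584 as reported) in ConvR against GF on chow, 11 to 1164 (692) in ConvD against GF, 6 to 3725 (681) in ConvD against ConvR, 16 to 791 (200) in ConvR against GF on HF/HS, 344 to 6100 (1802) and 259 to 1546 (1182) for diet in ConvR and GF mice, and 0 to 1192 (0) for the interaction. Of 80 calls of other pathway genes, 19 held with each library left out and 7 under every setting. Reversed were Gdf2 (0.10) and Glt25d1 (0.043) under HF/HS in ConvR mice by limma-trend on log2(TPM + 1), and Steap4 (-0.077) in ConvR against GF on chow without both ConvR chow 1 and 2. Depth limited Timp1, at 0 to 11 counts.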
